A study of Mus musculus with 6 samples.

Results

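Ribosome assembly factors and the transcription machinery of RNA polymerase I were followed as a group of 52 named genes among the 20654 genes of the count table. The group follows what the genes are known to do, was chosen with earlier results of these data known, and holds 3 classes. In the first are 26 factors that build the small ribosomal subunit, in the second 20 factors that build the large subunit, and in the third 6 genes for subunits and initiation factors of RNA polymerase I. All 52 genes were found by symbol in the table, and 51 passed the filter on low counts. *Nle1*, a large subunit factor, had too few counts to be tested, 7, 5 and 7 in the wild type and 9, 3 and 7 in the cKO libraries.

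The samples were muscle satellite cells (MuSCs), the stem cells of skeletal muscle, sorted from mouse limb muscle and grown for 3 days in growth medium with 30% foetal bovine serum and 10 ng/mL bFGF. The cKO mice carried floxed alleles of *Piezo1*, which encodes a mechanosensitive ion channel, and Pax7CreERT2/+, a tamoxifen-inducible Cre expressed from the *Pax7* locus. The control mice are labelled wild type, whereas a figure legend of the study on the RNA-seq data names the comparison as Pax7CreERT2/+ against *Piezo1* cKO. By that legend 1 *Pax7* allele was used for the Cre in both groups. The mice were C57BL/6, tamoxifen was injected intraperitoneally, and cells of both groups were cultured with 1 µM 4-OH TMX. The age of these mice is not given in the sources used here. Each group had 3 libraries, made from 500 pg of total RNA with unique molecular identifiers (UMIs). Total counts were 740936, 931168 and 891531 in wild type libraries 1 to 3 and 810096, 726378 and 769295 in cKO libraries 1 to 3. The labels do not say whether the libraries came from separate animals, so p-values measure only the spread between these samples. Levels are given as CPM, counts scaled by the TMM-adjusted library size. On this scale 1 count is worth between 1.12 and 1.44 CPM.

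The targeted gene was measured first. The wild type libraries held 11, 5 and 6 counts of *Piezo1*, and those with the cKO label held 7, 12 and 9. The ranges overlapped, the log2 fold change (cKO over wild type) was 0.42 ± 0.46 (SE, n = 3 per group), and the adjusted p was 0.791 when the gene was kept in the edgeR fit. No lower level was seen in the cKO libraries. The reads come from the 3′ end of transcripts, and since the position of the loxP sites relative to it was not examined, the value may not check the deletion. The libraries are therefore named by their label. The cells were checked by *Myod1*, a transcription factor of myoblasts, which stood at 1569, 1366 and 1441 CPM in the wild type libraries and at 1489, 1087 and 1353 CPM in the cKO libraries. *Pax7*, which marks satellite cells, was low, at 14.4, 29.0 and 22.4 CPM against 20.3, 6.60 and 15.9 CPM.

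A ribosome begins in the nucleolus, where RNA polymerase I transcribes the ribosomal DNA into a long precursor RNA. Assembly factors fold, cut and modify this precursor and place ribosomal proteins on it. The small subunit processome, built around the U3 snoRNP, forms first on the precursor, and pre-60S factors then mature the large subunit. Demand for these factors is high in growing and dividing cells, and the transcription factor MYC is known to activate many of their genes through a DNA element called the E-box. In muscle, satellite cells that leave quiescence enlarge and raise ribosome production, whereas differentiating myocytes lower it.

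The upstream sequence of the members was read from RefSeq promoter records on GRCm38.p6, which were given for 43 of the 52 genes. Within 250 bases upstream of the start site, the E-box letters CACGTG, which read the same on both strands, were in 6 of 50 member promoters (12%), in 9.10% of 8553 promoters of tested genes and in 6.02% of all 32851 promoters. The letters CCGGAAG, on either strand, the core bound by ETS family factors, were in 24% of member promoters, 15.5% of promoters of tested genes and 6.91% of all promoters. TATAAA, on either strand, was in 4%, 6.07% and 12.4%. No E-box overlapped a CCGGAAG in a member promoter. The E-box genes were *Utp18*, *Nol11*, *Imp4*, *Nop2*, *Nmd3* and *Rrn3*. Shown here are the last 100 bases before the start site, on the strand of the gene, of 3 genes with an E-box in that window and of *Rrp15*, the large subunit factor with the lowest fold change below, which has none. Capitals mark CACGTG and CCGGAAG.
Nop2, chr6:125131783-125131882, plus strand: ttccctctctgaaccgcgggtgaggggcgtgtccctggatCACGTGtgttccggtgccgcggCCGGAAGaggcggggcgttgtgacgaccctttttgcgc
Nol11, chr11:107189382-107189481, minus strand: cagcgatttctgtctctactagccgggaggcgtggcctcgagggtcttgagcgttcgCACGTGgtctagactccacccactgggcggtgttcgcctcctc
Rrn3, chr16:13780599-13780698, plus strand: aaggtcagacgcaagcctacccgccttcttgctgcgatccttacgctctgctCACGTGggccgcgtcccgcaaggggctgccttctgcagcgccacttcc
Rrp15, chr1:186749359-186749458, minus strand: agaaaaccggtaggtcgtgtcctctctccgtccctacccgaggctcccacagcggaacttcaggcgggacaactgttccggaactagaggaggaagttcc
Counted from the start site, the E-box of *Nop2* began at position -60 and its CCGGAAG at -38. In *Nol11* and *Rrn3* the nearest E-box began at -43 and -48, and *Rrn3* held a further one at -215. The 6 genes with the E-box had a median log2 fold change of -0.20, and the 36 tested genes without it in the matched records had a median of -0.28. Of the 14 members with an unadjusted p under 0.05, 13 were among those 36, and *Rrs1* had no matched record. The E-box genes *Nop2* and *Nol11* lay just above that threshold (unadjusted p = 0.0569 and 0.0612, edgeR). With only 6 E-box genes, no difference between the sets was tested. A match to these letters is not a measured binding site.

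No single assembly or polymerase gene passed the test, while nearly the whole group had a lower level in the cKO libraries. Among the 51 tested genes, 46 had a log2 fold change below 0 (90.2%), against 49.8% of the 8551 genes tested. The median was -0.24 over the members, a change of -15.5%, and 0.00 over all genes tested. The edgeR quasi-likelihood test with Benjamini-Hochberg adjustment called 67 genes (0.784%) across the table, 40 higher and 27 lower, and 0 of the 51 members. The smallest adjusted p of a member was 0.144. At an unadjusted p under 0.05, 14 members were lower and 0 higher, where 5.78% of all tested genes were lower and 6.14% higher. Without wild type library 2 these 14 became 4, and without library 2 of both groups the median over the members was -0.13. DESeq2 called 0 of the 45 members to which it gave an adjusted p. It called 27 of 4007 genes (0.674%), 12 of them higher, and placed 6 members, all lower, under an unadjusted p of 0.05. By DESeq2, 3.66% of all tested genes were lower and 2.2% higher at that threshold. For 14 members every cKO library lay below every wild type library, and for 0 every cKO library lay above. In all genes tested these shares were 8.31% and 8.2%. With 3 against 3 libraries, an exact permutation test of a single gene cannot go below 0.1. The standard errors of the members ran from 0.13 to 0.32. In bulk samples fewer cells of a type and less RNA per cell cannot be told apart.

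**Figure D1:**
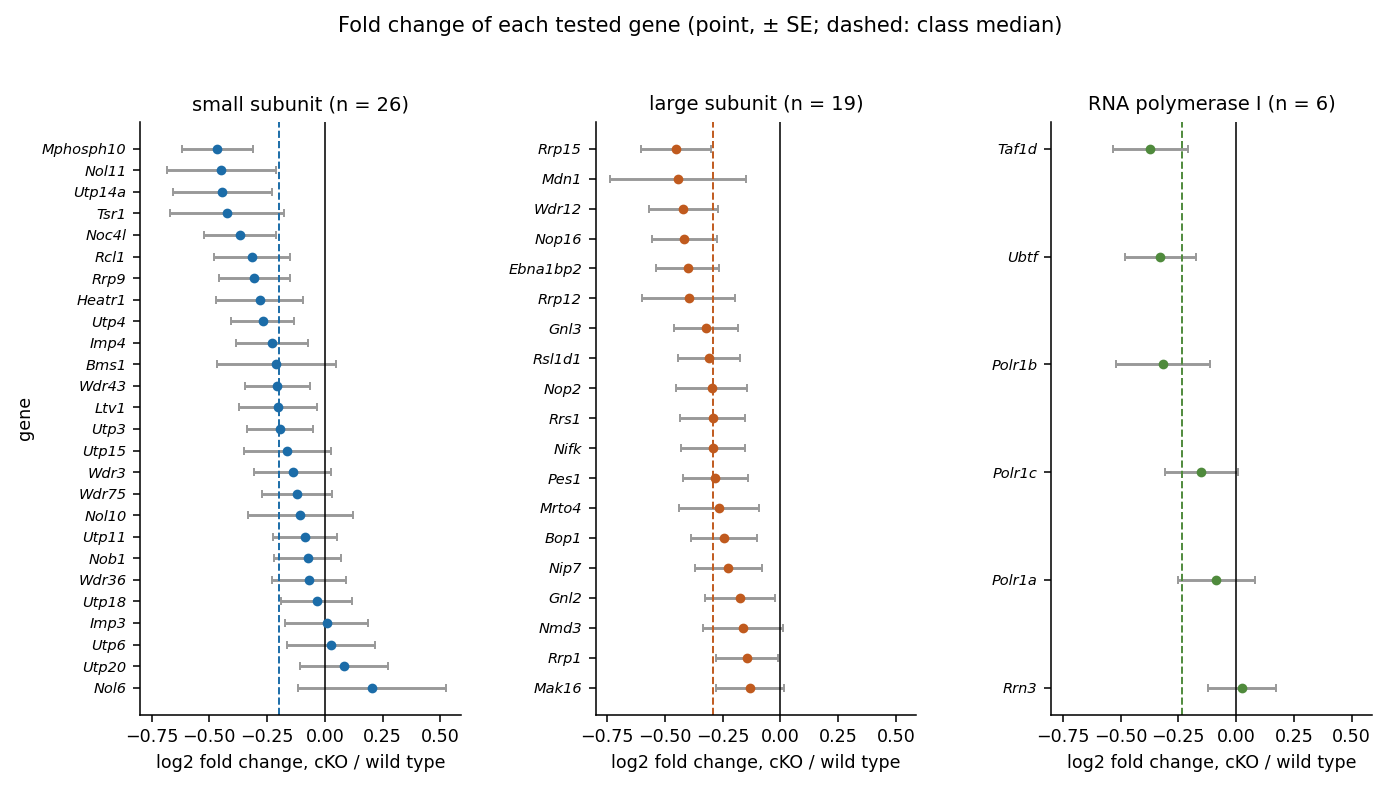
Log2 fold change (cKO over wild type, x axis) of each tested member with its standard error, by class (n = 3 libraries per group). The dashed lines are the class medians at -0.20, -0.29 and -0.23. All 19 large subunit factors lie left of 0, and 4 small subunit factors and *Rrn3* lie right of it.

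**Figure D2:**
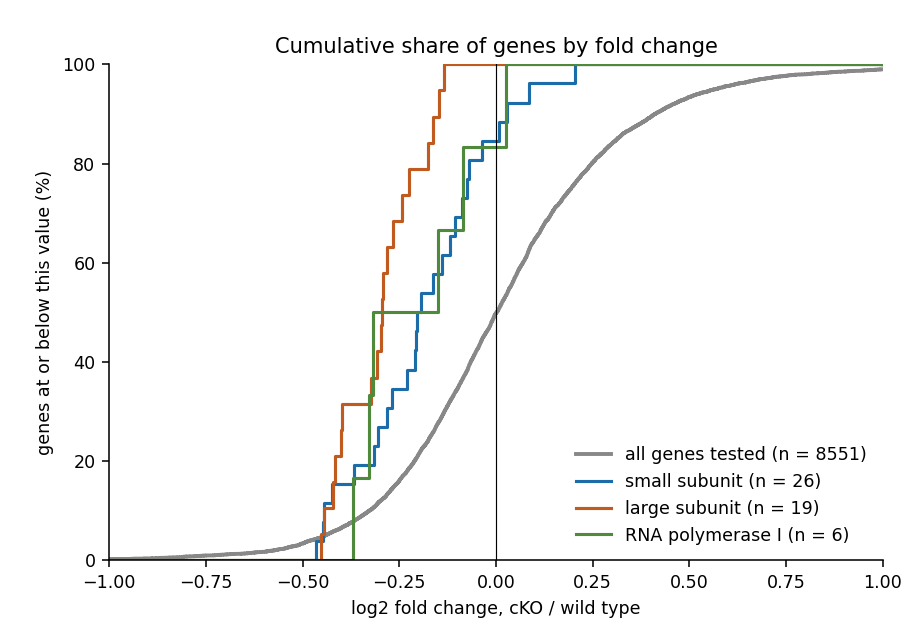
Cumulative share of genes (y axis, %) at or below each log2 fold change (x axis) for all 8551 genes tested and for the 3 classes. The axis ends at -1 and 1, beyond which only genes outside the classes lie. The curve of all genes crosses 0 at 49.8%, and the class curves reach 0 at 84.6%, 100% and 83.3%.

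RNA polymerase I genes had a median log2 fold change of -0.23, with 5 of 6 below 0, 2 with an unadjusted p under 0.05 and 1 without overlap between the groups. Without wild type library 2 the median was -0.14. Over all genes tested, 5.78% were lower at an unadjusted p under 0.05 in edgeR, and 8.31% were lower without overlap. DESeq2 placed 0 of the 6 genes under an unadjusted p of 0.05. So few genes do not allow these counts to be told from the shares over all genes. *Ubtf* (ENSMUSG00000020923.17, chr11:102304560-102319742, minus strand) encodes UBF, which binds the ribosomal DNA and keeps it open for transcription. Its level was 152, 161 and 137 CPM in the wild type libraries and 118, 120 and 121 CPM in the cKO libraries. All 3 cKO libraries lay below the lowest wild type library, and the log2 fold change was -0.33 ± 0.15 (SE, adjusted p = 0.378, edgeR). *Taf1d*, a subunit of the selectivity factor SL1 that recruits the polymerase, was at 173, 163 and 111 CPM against 132, 100 and 111 CPM, so that wild type library 3 lay within the cKO range (log2 fold change -0.37 ± 0.16, adjusted p = 0.328). The gene holds snoRNA genes and overlaps antisense genes, and reads of these could not be separated from its own. *Polr1b*, the second-largest subunit, was at 64.7, 92.6 and 64.9 CPM against 78.6, 48.9 and 51.7 CPM. Wild type library 2 and cKO library 2 held its extremes, and the log2 fold change of -0.32 ± 0.20 went to 0.01 without these libraries. *Polr1a*, the catalytic subunit, was at 105, 101.5 and 104 CPM against 87.5, 104 and 101 CPM (-0.09 ± 0.17), and *Polr1c*, which RNA polymerase III shares, at 131, 128 and 135 CPM against 115, 133 and 106 CPM (-0.15 ± 0.16). Single libraries decided these small values, which were -0.016 for *Polr1a* without cKO library 1 and -0.25 and -0.082 for *Polr1c* without cKO library 2 and cKO library 3. *Rrn3*, the factor TIF-IA that joins the polymerase to the promoter complex, was at 164, 176 and 158 CPM against 202, 141 and 164 CPM, with a log2 fold change of 0.03 ± 0.15 (adjusted p = 0.968). The core subunits and *Rrn3* thus overlapped between the groups.

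**Figure D3:**
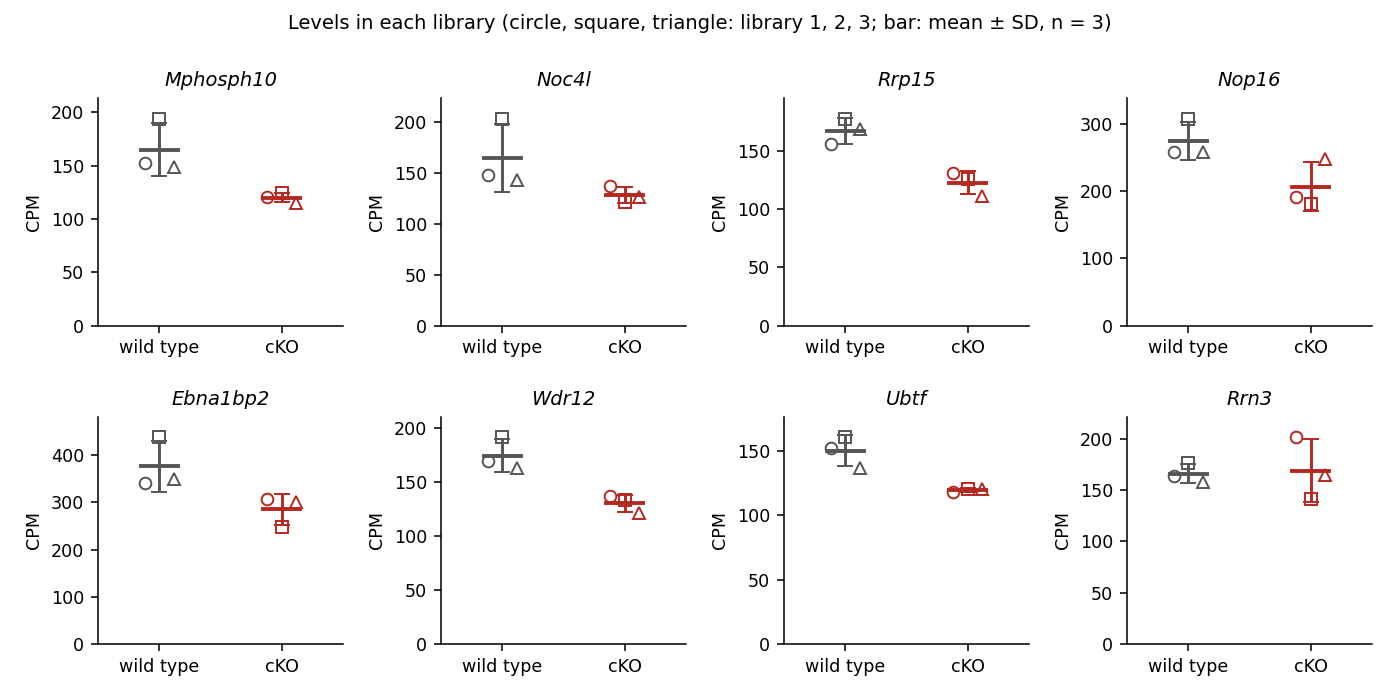
Level in CPM (y axis, from 0) of 8 members in each library, with the group mean and SD (n = 3). In *Mphosph10*, *Noc4l*, *Rrp15*, *Nop16*, *Ebna1bp2*, *Wdr12* and *Ubtf* every cKO library lies below every wild type library, and in *Rrn3* the groups overlap.

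Small subunit factors held 4 of the 5 members above 0. Of 26 tested genes, 22 had a log2 fold change below 0, the median was -0.20, 3 had an unadjusted p under 0.05 and 5 did not overlap (*Mphosph10*, *Noc4l*, *Rcl1*, *Tsr1* and *Ltv1*). Without wild type library 2 the median was -0.081. Over all genes tested, 5.78% were lower at an unadjusted p under 0.05 in edgeR, and 8.31% were lower without overlap. DESeq2 placed 1 of the 26 small subunit genes, lower, under an unadjusted p of 0.05, where it placed 3.66% of all tested genes. *Mphosph10* (ENSMUSG00000030521.11, chr7:64376527-64392268, minus strand) encodes a protein that binds U3 RNA together with IMP3 and IMP4. It had the smallest p of all members. Its level was 152, 194 and 149 CPM in the wild type libraries and 120, 124 and 115 CPM in the cKO libraries, and the log2 fold change was -0.47 ± 0.15 (SE, adjusted p = 0.144, edgeR). The cKO libraries lay close together and below all 3 wild type libraries.

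Its partners were measured too. *Imp4* was at 151, 151 and 129 CPM against 118, 112 and 136 CPM (log2 fold change -0.23 ± 0.15), and *Imp3* at 79.1, 105 and 76.8 CPM against 77.3, 84.5 and 102.03 CPM (0.01 ± 0.18, adjusted p = 0.990). *Rrp9*, the WD-repeat protein particular to the U3 snoRNP, was at 134, 199 and 171 CPM against 161, 125 and 123 CPM (-0.31 ± 0.15, adjusted p = 0.422). It overlaps an antisense gene, *Parp3*.

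*Noc4l*, a partner of NOP14 in the processome, was at 148, 203 and 143 CPM against 137, 122 and 126 CPM. The groups did not overlap, although wild type library 3 and cKO library 1 were close, and the log2 fold change was -0.37 ± 0.15 (adjusted p = 0.293). *Utp14a*, an activator of a helicase of the processome, was at 71.9, 66.9 and 59.0 CPM against 39.3, 46.2 and 59.6 CPM (-0.44 ± 0.21, adjusted p = 0.399), and cKO library 3 lay within the wild type range. Its 3′ end shares a run of 60 bases with another gene, so its counts are uncertain. *Rcl1*, needed for an early cut of the precursor, was at 127, 123 and 110 CPM against 109, 89.8 and 88.8 CPM (-0.32 ± 0.16). *Tsr1*, which stays on the late pre-40S particle, was at 43.1, 56.9 and 42.5 CPM against 41.8, 31.7 and 33.1 CPM (-0.42 ± 0.25), and *Ltv1*, another late pre-40S factor, at 106, 107 and 105 CPM against 82.4, 99.1 and 95.4 CPM (-0.20 ± 0.17). In *Tsr1* and *Rcl1* cKO library 1 lay just under the lowest wild type library.

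Factors of the tUTP complex, which binds the precursor first and is also needed for its transcription, all had log2 fold changes below 0. They were -0.45 ± 0.24 for *Nol11*, -0.28 ± 0.19 for *Heatr1*, -0.27 ± 0.14 for *Utp4*, -0.21 ± 0.14 for *Wdr43*, -0.16 ± 0.19 for *Utp15* and -0.12 ± 0.15 for *Wdr75*. *Nol11* was at 59.0, 62.5 and 42.5 CPM against 48.2, 34.3 and 37.1 CPM and *Utp4* at 249, 335 and 318 CPM against 284, 228 and 237 CPM, and in both the groups overlapped. Subunits of the UTPB complex, which follows on the precursor, were at -0.14 ± 0.17 for *Wdr3*, -0.07 ± 0.16 for *Wdr36*, -0.04 ± 0.15 for *Utp18* and 0.03 ± 0.19 for *Utp6*. These complexes were picked out after the values were seen, and no difference between them was tested.

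The 4 small subunit genes above 0 were *Nol6*, *Utp20*, *Utp6* and *Imp3*. *Nol6*, a scaffold protein of the processome, was at 11.5, 25.7 and 22.4 CPM against 25.3, 22.5 and 22.5 CPM, and its log2 fold change of 0.20 ± 0.32 came from wild type library 1, since without it the value was -0.03. *Utp20*, a very large scaffold protein, was at 56.1, 81.4 and 74.4 CPM against 76.0, 76.6 and 74.2 CPM (0.08 ± 0.19), with the same library lowest, and was at -0.04 without it. *Utp6* was at 67.6, 71.4 and 75.6 CPM against 65.9, 70.0 and 83.5 CPM. In each of these 3 genes the groups overlapped and no direction was resolved. The 14 other tested small subunit factors, outside the naming rule, had log2 fold changes from -0.28 to -0.04 and adjusted p-values from 0.584 to 0.958.

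Large subunit factors had a log2 fold change below 0 in all 19 tested genes, of which 0 passed the test. The median log2 fold change was -0.29, 9 genes had an unadjusted p under 0.05 and 8 did not overlap (*Rrp15*, *Nop16*, *Ebna1bp2*, *Wdr12*, *Rsl1d1*, *Nifk*, *Nop2* and *Nip7*). The shares over all genes tested were 5.78% and 8.31% in this direction. DESeq2 placed 5 of the 19, all lower, under an unadjusted p of 0.05, against 3.66% of all tested genes. *Rrp15* (ENSMUSG00000001305.5, chr1:186720978-186749358, minus strand), a pre-60S processing factor, was at 155, 177 and 169 CPM in the wild type libraries and at 131, 125 and 111 CPM in the cKO libraries. The groups were well apart, and the log2 fold change was -0.45 ± 0.15 (SE, adjusted p = 0.159, edgeR).

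*Nop16*, a nucleolar pre-60S protein, was at 259, 308 and 259 CPM against 191, 181 and 248 CPM (-0.42 ± 0.14, adjusted p = 0.160), with cKO library 3 near the wild type libraries. *Ebna1bp2*, the mammalian Ebp2, which acts early on the large subunit precursor, was at 341, 438 and 350 CPM against 308, 247 and 301 CPM (-0.40 ± 0.14, adjusted p = 0.162). *Rsl1d1*, a nucleolar protein with a ribosomal L1 domain, was at 411, 487 and 392 CPM against 375, 322 and 346 CPM (-0.31 ± 0.13, adjusted p = 0.321). In *Ebna1bp2* and *Rsl1d1* wild type library 2 was highest and cKO library 2 lowest.

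PES1, BOP1 and WDR12 form the PeBoW complex, which is needed to process the large subunit RNA. *Wdr12* (ENSMUSG00000026019.15, chr1:60069785-60098645, minus strand) was at 170, 192 and 163 CPM against 137, 133 and 122 CPM, with no overlap (-0.42 ± 0.15, adjusted p = 0.181). *Pes1* was at 230, 274 and 230 CPM against 176, 193 and 237 CPM (-0.28 ± 0.14, adjusted p = 0.416), and *Bop1* at 203, 321 and 246 CPM against 236, 202 and 216 CPM (-0.24 ± 0.14, adjusted p = 0.509). The groups overlapped for *Pes1* and *Bop1*. *Wdr12* and *Pes1* share a run of 60 bases at the 3′ end with other genes.

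*Gnl3*, or nucleostemin, a nucleolar GTPase abundant in stem cells, was at 253, 318 and 240 CPM against 251, 194 and 204 CPM. Only cKO libraries 2 and 3 lay below the wild type libraries, and the log2 fold change was -0.32 ± 0.14 (adjusted p = 0.323). *Nifk*, a partner of the proliferation protein Ki-67, was at 233, 244 and 244 CPM against 231, 169 and 189 CPM (-0.29 ± 0.14, adjusted p = 0.393), so that cKO library 1 lay just under the wild type range. *Rrs1*, which helps bring the 5S RNA particle into the large subunit, was at 232, 301 and 241 CPM against 245, 176 and 212 CPM (-0.29 ± 0.14, adjusted p = 0.395). *Nop2*, an RNA methyltransferase whose upstream E-box is shown above, was at 158, 133 and 161 CPM against 132, 111 and 123 CPM (-0.30 ± 0.15, adjusted p = 0.436), with wild type library 2 and cKO library 1 almost level. *Mak16*, an early pre-60S factor, had the fold change nearest to 0, at 188, 184 and 157 CPM against 176, 162 and 143 CPM (-0.13 ± 0.15, adjusted p = 0.791), and ran from -0.21 without wild type library 3 to -0.061 without cKO library 3. The 10 tested large subunit factors outside the naming rule ran from -0.44 to -0.15, with adjusted p-values from 0.416 to 0.779. The lowest of these was *Mdn1*, a giant ATPase that strips factors from the pre-60S particle, whose log2 fold change of -0.44 ± 0.29 rested on 33.1, 34.6 and 28.3 CPM against 22.8, 33.0 and 14.6 CPM.

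**Figure D4:**
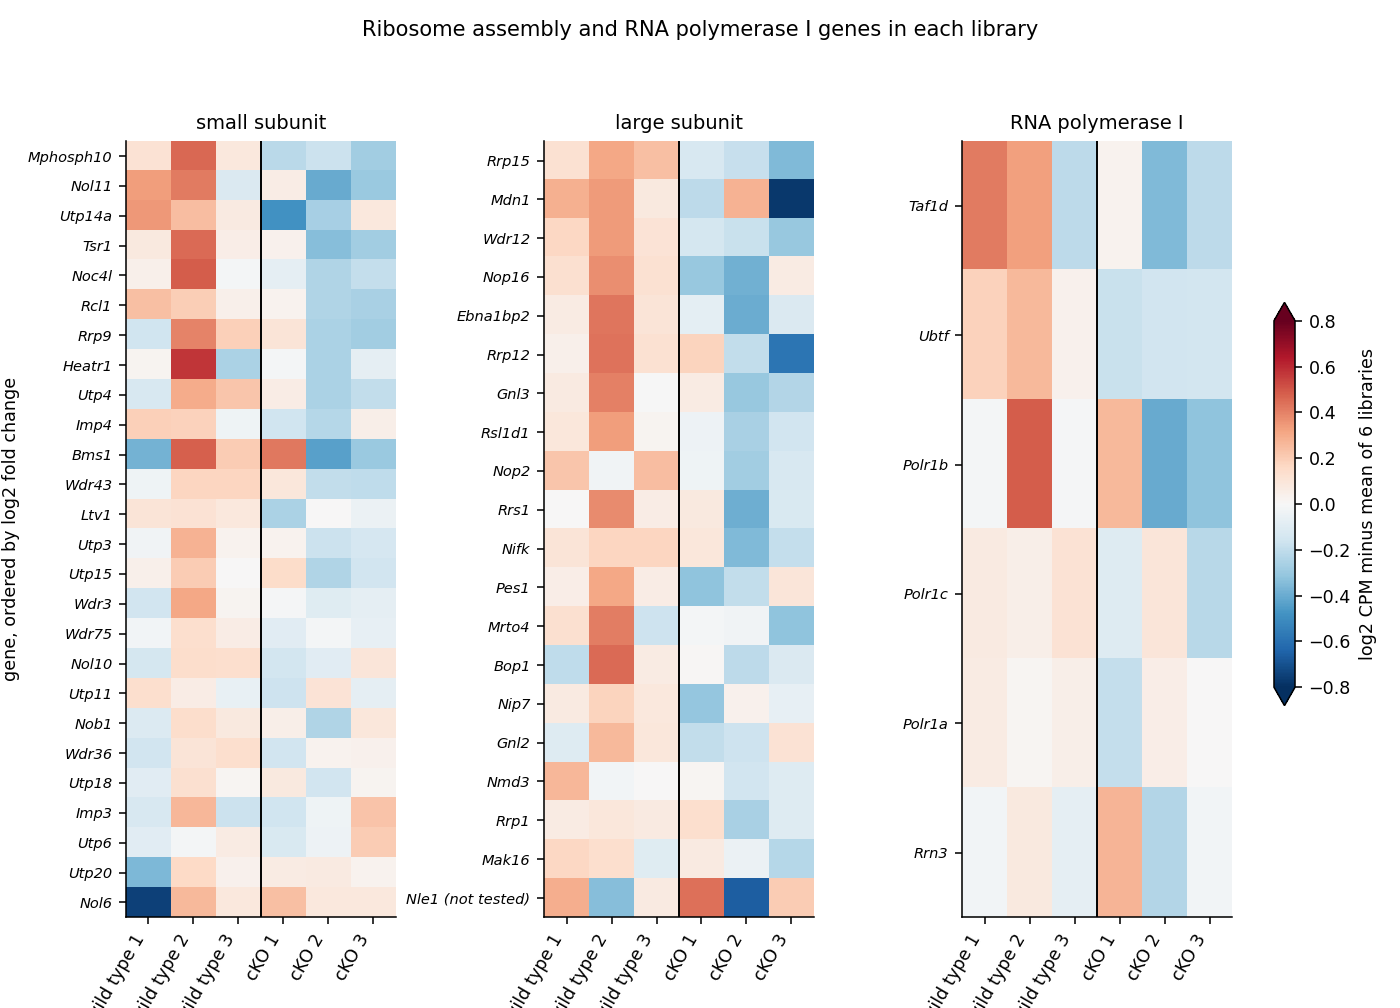
Deviation of each member's log2 CPM from its mean over the 6 libraries (colour, red above and blue below), with genes in rows ordered by log2 fold change and libraries in columns. Wild type library 2 is below the mean in 3 of 51 tested members and cKO library 2 in 42.

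The libraries of a group did not stand at the same level. Wild type library 2 held the highest value of 35 of the 51 tested members and cKO library 2 the lowest of 23. The mean deviation of the members from their own mean, on the log2 scale, was 0.03, 0.26 and 0.05 in wild type libraries 1 to 3 and -0.03, -0.17 and -0.13 in cKO libraries 1 to 3. For the large subunit the values were 0.09, 0.28 and 0.07 against -0.06, -0.19 and -0.19, and the groups did not overlap. For the small subunit they were -0.04, 0.26 and 0.04 against -0.03, -0.16 and -0.08, so that wild type library 1 lay below cKO library 1. For RNA polymerase I they were 0.12, 0.20 and -0.02 against 0.01, -0.16 and -0.15, and wild type library 3 lay below cKO library 1. Summed over the members, the level was 7679, 8995 and 7790 CPM in the wild type libraries and 7339, 6509 and 6889 CPM in the cKO libraries. Without wild type library 2 alone, some log2 fold changes moved by over 1.5 times, to -0.18 for *Noc4l*, -0.16 for *Rrp9*, -0.26 for *Tsr1*, -0.11 for *Polr1b*, -0.16 for *Rrs1*, -0.18 for *Gnl3* and -0.20 for *Rsl1d1*. Those of *Mphosph10*, *Utp14a*, *Rcl1*, *Rrp15*, *Wdr12* and *Ubtf* stayed within 1.5 times of their value when any 1 library was left out. Without wild type library 2 and cKO library 2, which were left out only once the values were known, 39 of 51 members were below 0 and 2 had an unadjusted p under 0.05. The medians were then -0.08 for the small subunit, -0.18 for the large subunit and -0.18 for RNA polymerase I, with 17 of 26, 18 of 19 and 4 of 6 genes below 0. Of the proliferation genes described below, 15 of 20 were then below 0, with a median of -0.07.

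**Figure D5:**
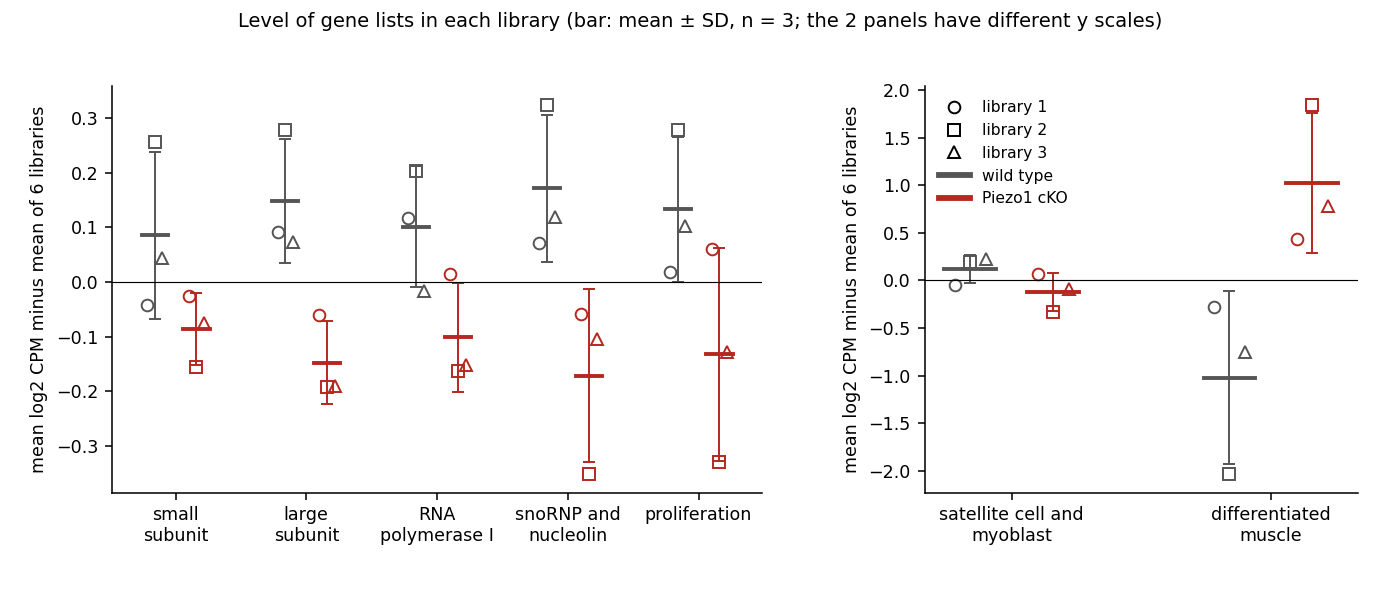
Mean deviation of log2 CPM (y axis, different scale in each panel) of gene lists in each library, with the group mean and SD (n = 3). In the large subunit and the snoRNP lists every cKO library lies below every wild type library. In the differentiated muscle list library 2 is the lowest of the wild type group and the highest of the cKO group.

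Other genes of the same pathway were read from lists that the members are not part of. Of 80 further tested assembly and polymerase genes, 73 had a log2 fold change below 0 (91.2%), with a median of -0.17, and 12 had an unadjusted p under 0.05, all lower, while 0 were called by edgeR. By class, 27 of 28 small subunit genes, 39 of 44 large subunit genes and 7 of 8 RNA polymerase I genes were below 0, with medians of -0.13, -0.17 and -0.22. Without both replicates 2, 53 of 81 of the further genes were below 0, with a median of -0.076, and the class medians were -0.053, -0.081 and -0.082. Genes of the exosome and RNase MRP, which trim and cut the precursor, were below 0 in 13 of 18, with a median of -0.14. In the same setting this median was 0.02. Cytosolic ribosomal protein genes were below 0 in 71 of 77, with a median of -0.17, and edgeR called 0 of them, 12 having an unadjusted p under 0.05, all lower. DESeq2 called 1 of them and placed 25 under an unadjusted p of 0.05, all lower. Scaled in edgeR by DESeq2 size factors 71 of 77 were below 0, and by total counts 63 of 77. After cyclic loess in limma-voom, which changed the fit as well as the scaling, the median was 0.00 and 40 of 77 were below 0. On the TMM scale, every cKO library lay below every wild type library for 28 of these 77, against 8.31% of all genes tested. This count was not repeated after loess.

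The list of snoRNP proteins, which bind the RNAs that guide modification of the precursor, and of nucleolin, an abundant nucleolar protein that acts in its transcription and processing, had 2 genes called by edgeR. Of 11 tested, 10 were below 0, 8 had an unadjusted p under 0.05, and the median log2 fold change was -0.33. *Ncl*, nucleolin, was at 1772, 1882 and 1549 CPM in the wild type libraries and fell to 1342, 902 and 1187 CPM in the cKO libraries (log2 fold change -0.60 ± 0.15, adjusted p = 0.0280, edgeR). *Nop56*, a core protein of box C/D snoRNPs, was at 559, 613 and 442 CPM and fell to 406, 318 and 351 CPM (-0.59 ± 0.14, adjusted p = 0.0134). In both the groups were apart. Both calls were lost without wild type library 1 or 2 or cKO library 2 or 3, with adjusted p-values of up to 0.147 for *Ncl* and 0.202 for *Nop56*, while the log2 fold changes over all single-library omissions ran from -0.73 to -0.46 and from -0.71 to -0.47. After cyclic loess in limma-voom, too, neither passed (log2 fold change -0.36 and adjusted p = 0.178 for *Ncl*, -0.45 and 0.143 for *Nop56*). Without both replicates 2 the log2 fold changes were -0.39 (adjusted p = 0.0622) and -0.40 (adjusted p = 0.195), and the median of the list was -0.19. Some members carry snoRNAs in their own introns. *Wdr43*, *Tsr1*, *Gnl3* and *Taf1d* hold annotated snoRNA genes, 4 of 52 members (7.69%) against 189 of 8378 tested genes with a position (2.26%). Their median log2 fold change was -0.35, and that of the other 47 tested members -0.23.

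*Myc* itself was at 276, 373 and 299 CPM in the wild type libraries and at 246, 210 and 233 CPM in the cKO libraries. The groups did not overlap, the log2 fold change was -0.46 ± 0.14, and the adjusted p of 0.0917 did not pass. Of 16 alternatives, 1 brought it past the threshold, leaving out cKO library 1 (log2 fold change -0.52, adjusted p = 0.0414), and without both replicates 2 the log2 fold change was -0.26 (adjusted p = 0.726). *Mycl*, a relative of MYC, rose from 20.1, 14.5 and 16.5 CPM to 27.9, 58.1 and 30.5 CPM (1.19 ± 0.31, adjusted p = 0.0294). The call of *Mycl* held in 7 of 16 alternatives. The settings in which it was lost included those without wild type library 2 or 3 or cKO library 2 (adjusted p of up to 0.588), limma-voom (0.129), cyclic loess (0.191), thinning (0.0759) and leaving out both replicates 2 (0.724), and DESeq2 gave it no adjusted p. Its log2 fold change was 0.78 without cKO library 2 and 0.68 without both replicates 2. Of the 6 tested genes of the MYC network list, 5 were above 0, with a median log2 fold change of 0.36, 3 had an unadjusted p under 0.05 in that direction, and *Myc* was the 1 below 0.

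Lists that mark the state of the cells were read beside these levels. Of 9 tested satellite cell and myoblast genes, 5 were below 0 and 4 above, from -1.59 to 0.53, and 3 lower and 1 higher had an unadjusted p under 0.05, with 0 called by edgeR and 1 by DESeq2. Their summed level, mostly *Myod1*, was 2998, 2852 and 2931 CPM against 2975, 2346 and 2698 CPM. All 20 proliferation genes had a log2 fold change below 0, with a median of -0.25, and 0 were called by edgeR, 7 having an unadjusted p under 0.05. Their summed level was 5630, 6119 and 5612 CPM against 5512, 4160 and 4877 CPM, and the most abundant was *Rrm2*, a subunit of the enzyme that makes deoxyribonucleotides. *Mki67*, which encodes Ki-67, was at 56.1, 89.2 and 68.5 CPM against 57.0, 46.2 and 63.6 CPM. The differentiated muscle list ran the other way, with all 10 tested genes above 0. Of its 13 genes in the count table only these 10 passed the filter on low counts, which a gene can pass on the counts of 1 group. The direction of a gene that passed only through the cKO libraries was thus largely set by the filter. The summed level of the list was 470, 177 and 413 CPM against 812, 2166 and 1071 CPM, led by *Acta1*, skeletal actin. *Tnni2*, a fast troponin, and *Actn3*, a fast-fibre actinin, passed the test and rose (log2 fold changes 2.16 ± 0.45 and 1.20 ± 0.18, adjusted p = 0.00459 and 1.02e-05). The call of *Tnni2* was lost without cKO library 2 (adjusted p = 0.277) and without both replicates 2 (0.346), and DESeq2 gave it no adjusted p. With counts of 6, 2 and 4 against 16, 24 and 12, *Tnni2* passed the filter only through the cKO libraries. Its direction was therefore set by the filter. *Myog*, which starts differentiation, was at 57.5, 3.35 and 53.1 CPM against 79.9, 268 and 122 CPM. Wild type library 2, with the highest assembly factor levels, thus had the lowest differentiated muscle level, and cKO library 2, with the lowest mean assembly factor level, had the highest. The part of cell state in the assembly factor values was not tested.

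Markers of other cells of muscle were present at differing levels, after a sort for VCAM1-positive cells that lacked CD31, CD45 and Sca1, which should remove endothelial, haematopoietic and fibro-adipogenic cells. Endothelial markers summed to between 1.18 and 19.9 CPM, with *Tek* the most abundant, and Schwann cell markers to between 1.32 and 10.1 CPM. Haematopoietic markers summed to between 57.5 and 88.7 CPM, mostly *Laptm5*. Fibro-adipogenic markers summed to 198, 200 and 350 CPM against 285, 308 and 269 CPM, mostly *Col3a1*. Of these, *Dcn*, a proteoglycan of fibroblasts, fell from 25.9, 25.7 and 43.7 CPM to 10.1, 6.60 and 3.98 CPM (-2.17 ± 0.38, adjusted p = 0.000387, edgeR). DESeq2 gave *Dcn* no adjusted p. With counts of 18, 23 and 37 against 8, 5 and 3, *Dcn* passed the filter on low counts only through the wild type libraries. Its direction was therefore set by the filter. Smooth muscle and pericyte markers summed to 246, 109 and 479 CPM against 413, 564 and 424 CPM, mostly *Acta2*, which wild type library 2 again held lowest. Their part in the assembly factor values was not tested.

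Several members have counts that other genes could share. A gene on the opposite strand overlaps 12 of the 52 members, and for 7 a run of 60 bases in the last 300 bases of the transcript recurs in other annotated genes. Strand and multi-mapping settings of the counting are not given in the sources used here.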

How the data were processed

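The submitters' processing notes name STAR 2.7.9a, featureCounts 2.0.1, UMI-tools 1.1.1 and the build GRCm38, with which the authors aligned reads, counted them per gene and collapsed UMIs. The deposited values are whole-number counts per gene, not normalized. Strand and multi-mapping settings are not given in the sources used here. Low counts were filtered (filterByExpr, minimum count 10) and 8551 of 20654 genes were tested with the robust quasi-likelihood test of edgeR 4.0.16 on TMM-scaled counts (R 4.3.3), with p-values adjusted over all genes tested (threshold 0.05). The script was tested on simulated data. The standard error was derived from the fold change and the test statistic. The alternatives were DESeq2 1.42.0, limma-voom (limma 3.58.1), DESeq2 size factors, total counts, cyclic loess, no filter and a stricter one, a replicate block, thinning, and leaving out libraries. Positions come from GENCODE vM21 (GRCm38).

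The lists, like the members, were chosen with earlier results of these data known. The members named were all 6 RNA polymerase I genes and, per assembly class, the 8 with the smallest p, any with an adjusted p under 0.05, the lowest and the highest fold change and those above 0. *Piezo1*, *Pax7*, *Myod1*, *Myog*, *Mki67*, *Myc*, *Ncl*, *Nop56* and called genes of the lists were also named. Any other gene was named after its values were seen. *Rrp12*, known in both pathways, was counted with the large subunit. Within groups no 2 libraries agreed within sampling noise (chi-square per degree of freedom 1.64 to 2.61).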

Additional observations from a re-analysis of the deposited data

How the results depend on the processing

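No member was called in any of 16 alternative settings, in which the lowest adjusted p of a member was 0.0777, and 21 of 27 named members kept their sign in all of them. The 67 genes called across the table became 27 in DESeq2, 129 with no filter and 124 at an adjusted p under 0.1, and 6 to 174 when 1 library was left out. The 14 members with an unadjusted p under 0.05 became 6 in DESeq2, 5 with total counts, 8 with the replicate block and 2 without both replicates 2, and 4 to 22 when 1 library was left out, the fewest without wild type library 2 and the most without cKO library 1. The 14 members without overlap became 7 with total counts, where the share over all tested genes was 5.09%, and 14 to 26 with 1 library left out, where that share was 11.9% to 15.8% because fewer libraries have to be apart. The small subunit median ran from -0.24 to -0.081 when libraries were left out, the latter without wild type library 2, and the large subunit median from -0.37 without cKO library 1 to -0.18 without both replicates 2. The RNA polymerase I median ran from -0.26 to -0.14, the latter without wild type library 2. The replicate block changed the call of *Mycl* among the named genes. Same-numbered libraries did not deviate together (correlations -0.14, -0.20 and 0.01). So few libraries cannot show whether the samples were prepared in pairs, and the labels do not say. Signs reversed when libraries were left out for *Polr1b* (-0.57 to 0.010, the latter without both replicates 2), *Rrn3* (-0.13 to 0.19), *Nol6* (-0.034 without wild type library 1, to 0.46), *Utp20* (-0.041 without the same library, to 0.20), *Utp6* (-0.081 to 0.094) and *Imp3* (-0.11 to 0.20). They also reversed after loess for *Utp6* (-0.0062), *Imp3* (-0.0032, and -0.0020 in DESeq2) and *Myod1* (0.091). The causes were not tested. Total-count scaling moved the median of all genes to 0.08 and the called genes from 40 to 49 higher of 67, and the class medians were then -0.12, -0.22 and -0.16. Counts of a member ran from 3 to 437 per library, which limits the precision of single genes.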
